A study of Mus musculus with 19 samples.

Results

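The genes described here are 35 mouse genes of meiotic prophase, with products in the synaptonemal complex, the chromosome axis and its cohesin, recombination, and the attachment of telomeres to the nuclear envelope. They were chosen by name and compared with the 21000 protein-coding genes of the RefSeq curated annotation. The question was which of their promoters carried a peak of SOX3, a transcription factor of undifferentiated spermatogonia, in the testis at postnatal day (P) 7. Chromatin was from seminiferous tubules of C57BL/6J mice, with 3 mice per preparation. The labels name whole P7 testis and a pair of SOX3 antibodies, and give no genotype or treatment for these libraries. There were 2 ChIP-seq replicates, with 58351 and 38832 deposited peaks, and 2 replicates of ChIP-nexus, an exonuclease variant of ChIP-seq, with 111 and 19 regions. Of 19 labelled samples, these 4 had a peak list that was used, and 15 were not analysed here. Tubules hold germ cells and somatic cells such as Sertoli cells, so a peak cannot be assigned to a cell type, and the lists hold no marker expression that could check the labelled tissue.

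In meiotic prophase, homologous chromosomes are broken by SPO11, search for each other through strand exchange, and are zipped together by the synaptonemal complex along an axis built on meiotic cohesin. Breaks are repaired partly as crossovers, while chromosome ends are tethered to the nuclear envelope and moved. The genes of this programme are switched on as germ cells commit to meiosis, under retinoic acid, STRA8 and MEIOSIN, and several are held silent in other cells by E2F6-type repressor complexes and by DNA methylation. At P7 the tubules hold mainly spermatogonia and Sertoli cells, and germ cells have scarcely entered prophase.

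A gene was called bound in a replicate if any peak of that list reached into the 2 kb on either side of an annotated start site. In replicate 1, 33 of the 35 genes (94.3%) were bound, beside 67.8% of all protein-coding genes. In replicate 2, 23 (65.7%) were bound, beside 60% of all. The same 23 genes were bound in both lists (65.7%, beside 57.9% of all), a further 10 in replicate 1 alone and none in replicate 2 alone, so that 33 (94.3%, beside 70.0%) were bound in at least 1 list. Tex15 and Meikin were bound in neither. The distance from the background was larger in replicate 1 than in replicate 2. With 2 lists and no control list, these shares are descriptions without a test.

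**Figure D1:**
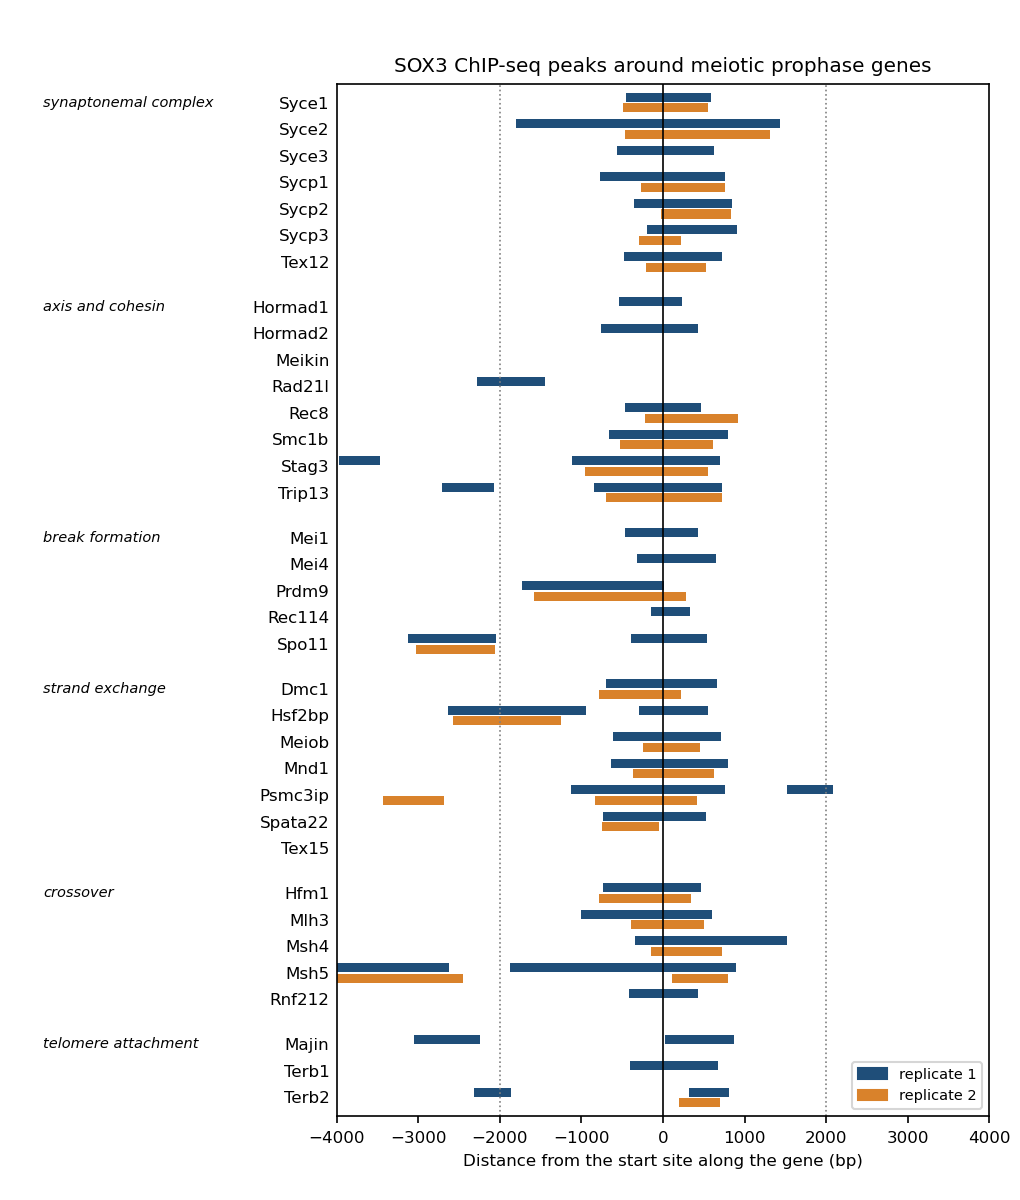
SOX3 ChIP-seq peaks within 4000 bp of the reference start site of each of the 35 genes, grouped by role, with distance in bp along the direction of transcription (x axis), replicate 1 in blue and replicate 2 in orange. Solid and dotted lines mark the start site and 2 kb either side. Most peaks sit across the start site. At the 10 genes bound in replicate 1 alone no orange bar lies inside the dotted lines, though Spo11 has an orange bar just outside them. Mei1 has no orange bar either, because the peaks of both lists at its downstream start site lie outside the plotted range.

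Promoters rich in CpG, the base step that is methylated and depleted in most of the genome, were the ones most often bound over all genes, so the sequence just upstream of the start site is shown first for genes at the ends of the range. All are the 250 bases before the start site in RefSeq, build GRCm38.p6, written 5′ to 3′ on the strand of the gene with each CpG in capitals. The first 3, Hsf2bp, Stag3 and Trip13, had the highest-ranked peaks among the members bound in both lists. Hfm1 and Rad21l are those with the most and the fewest CpG (34 and 1), chosen after their values were seen. Hormad1, Rnf212 and Mei4 were bound in replicate 1 alone and had the highest CpG ratios of such members with an entry at the reference start site. Of the 35 genes, 29 had an entry in the promoter table, and Spo11, Meiob, Tex15, Majin, Terb2 and Meikin had none.
Hsf2bp (chr17:32034509-32034758, minus strand): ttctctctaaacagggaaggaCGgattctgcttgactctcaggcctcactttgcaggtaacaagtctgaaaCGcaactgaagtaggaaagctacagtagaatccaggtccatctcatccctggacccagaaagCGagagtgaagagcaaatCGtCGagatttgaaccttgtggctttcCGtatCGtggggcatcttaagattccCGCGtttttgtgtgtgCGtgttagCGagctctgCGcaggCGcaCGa
Stag3 (chr5:138280259-138280508, plus strand): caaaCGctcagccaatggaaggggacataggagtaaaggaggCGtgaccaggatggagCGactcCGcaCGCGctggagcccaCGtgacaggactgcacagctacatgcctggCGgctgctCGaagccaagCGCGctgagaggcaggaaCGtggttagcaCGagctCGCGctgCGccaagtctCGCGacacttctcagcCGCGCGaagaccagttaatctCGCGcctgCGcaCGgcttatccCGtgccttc
Trip13 (chr13:73937768-73938017, minus strand): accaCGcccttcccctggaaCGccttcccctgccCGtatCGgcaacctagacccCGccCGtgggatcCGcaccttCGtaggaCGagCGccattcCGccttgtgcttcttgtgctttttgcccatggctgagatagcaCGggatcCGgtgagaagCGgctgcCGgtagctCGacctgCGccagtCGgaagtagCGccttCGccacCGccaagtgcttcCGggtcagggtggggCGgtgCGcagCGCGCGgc
Hfm1 (chr5:106925891-106926140, minus strand): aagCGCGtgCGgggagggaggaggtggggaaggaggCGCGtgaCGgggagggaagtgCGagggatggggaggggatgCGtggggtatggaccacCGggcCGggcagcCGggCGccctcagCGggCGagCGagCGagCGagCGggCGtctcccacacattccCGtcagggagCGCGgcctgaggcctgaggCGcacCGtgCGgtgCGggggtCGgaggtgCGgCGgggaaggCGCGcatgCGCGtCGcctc
Hormad1 (chr3:95559427-95559676, plus strand): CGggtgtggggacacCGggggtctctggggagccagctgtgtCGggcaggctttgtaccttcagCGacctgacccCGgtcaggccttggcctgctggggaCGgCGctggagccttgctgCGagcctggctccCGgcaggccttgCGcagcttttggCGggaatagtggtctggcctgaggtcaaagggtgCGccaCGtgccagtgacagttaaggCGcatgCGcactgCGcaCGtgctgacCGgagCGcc
Rnf212 (chr5:108775028-108775277, minus strand): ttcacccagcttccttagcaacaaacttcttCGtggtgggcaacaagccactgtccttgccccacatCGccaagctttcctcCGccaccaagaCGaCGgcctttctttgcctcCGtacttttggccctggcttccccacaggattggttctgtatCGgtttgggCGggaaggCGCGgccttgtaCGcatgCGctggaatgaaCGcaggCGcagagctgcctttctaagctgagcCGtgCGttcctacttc
Mei4 (chr9:81863420-81863669, plus strand): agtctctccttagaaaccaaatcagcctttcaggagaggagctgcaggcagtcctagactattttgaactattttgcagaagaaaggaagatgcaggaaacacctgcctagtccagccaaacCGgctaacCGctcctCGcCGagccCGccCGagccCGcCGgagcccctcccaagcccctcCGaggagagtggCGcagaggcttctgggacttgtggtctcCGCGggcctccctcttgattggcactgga
Rad21l (chr2:151668534-151668783, minus strand): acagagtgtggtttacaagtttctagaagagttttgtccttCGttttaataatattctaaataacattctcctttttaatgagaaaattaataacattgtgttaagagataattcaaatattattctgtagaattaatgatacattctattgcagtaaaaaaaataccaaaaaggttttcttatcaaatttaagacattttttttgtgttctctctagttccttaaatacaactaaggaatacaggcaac

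The promoter of Hfm1 is dense in CpG, while that of Rad21l holds a single CpG in an AT-rich stretch. The strongest Hsf2bp peaks lay further upstream than the bases shown. Over the 29 genes the median was 13 CpG in these 250 bases, and over 16853 protein-coding promoters it was 11. Among members, the median was 14 for the 21 bound in both lists and 11.5 for the 8 bound in replicate 1 alone. Tex15 and Meikin, the members bound in neither list, had no entry, so these medians do not compare bound with unbound genes.

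The comparison with genes of equal promoter CpG ratio used the observed over expected CpG in 500 bp either side of a start site, taking the highest value over the start sites of a gene. Members ranged from 0.0314 (Tex15) to 0.892 (Hfm1), with a median of 0.64, close to the 0.615 of all protein-coding genes. The 23 members bound in both lists had a median of 0.668, below the 0.758 of all genes bound in both lists. Each member was set beside every other protein-coding gene in its stratum of 0.1 of the ratio. By that measure 82.8% (29.0 of 35) would be bound in replicate 1, against 94.3% observed, a difference of 11.5 points. For replicate 2 the share at equal ratio was 71.9% (25.2 of 35), and the members differed from it by -6.22 points. For both lists it was 69.9% (24.5 of 35), and the difference was -4.16 points. The members were thus above genes of equal CpG ratio in 1 replicate and below them in the other.

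The class in which members differed most between the replicates was that with a ratio from 0.3 to 0.6. Of its 13 members, 12 were bound in replicate 1 (other genes of the class, 65.0%) and 5 in replicate 2, which is also the number bound in both (other genes, 46.0%). These 5 were Syce1, Rec8, Spata22, Hsf2bp and Terb2. The class shares are not matched on CpG ratio, because 8 of the 13 members had a ratio from 0.5 to 0.6. In that stratum 83.6% of other genes were bound in replicate 1, 67.8% in replicate 2 and 65.3% in both. Of its 8 members, 8 were bound in replicate 1 and 3 in replicate 2, the same 3 in both. Of the 4 members from 0.4 to 0.5, 4 and 2 were bound in replicates 1 and 2, beside 63.9% and 48.2%. At a ratio of 0.6 or more, all 20 members were bound in replicate 1 and 18 in replicate 2, beside 96.5% and 90.7% of the other genes, with Spo11 and Hormad1 the exceptions. Rad21l and Tex15 were the only members below 0.3, where 8.15% of the other genes were bound in both lists, and neither of them was.

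**Figure D2:**
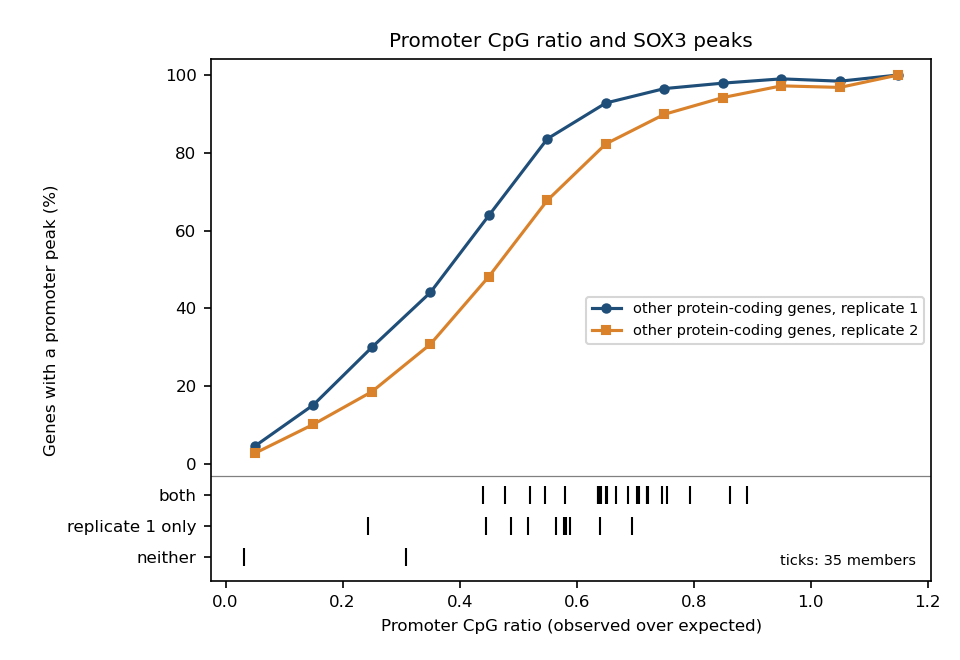
Share of other protein-coding genes with a promoter peak (%, y axis) against promoter CpG ratio (x axis), in strata of 0.1 with at least 20 genes, for replicate 1 (circles) and replicate 2 (squares). Ticks below the line place the 35 members by their own ratio and by the lists in which they were bound; members bound in both lists start at 0.44, and those bound in neither are at 0.0314 and 0.308.

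The strength of a peak is given by its q score, which is −10log10 of the p-value after adjustment for the false discovery rate, as the authors' caller wrote it. The deposited lists start at 30 on this scale. Where a promoter had several peaks, the highest score was taken. Scores are comparable only within a list, so each was also placed as a percentile among the bound protein-coding genes of that list. The members' median score was 85.0 in replicate 1 (range 30.0003 to 335) and 62.4 in replicate 2 (30.1 to 120), beside 171 and 80.1 for all bound protein-coding genes. Their median percentiles were 26.1 and 35.7 (mean 30.9 ± 6.81, SD, n = 2). Only 4 of 33 in replicate 1 and 3 of 23 in replicate 2 lay above the 50th percentile, and none above the 90th. Of the 35 members, 13 (37.1%) had a score above 60 in both lists, beside 39.5% of all protein-coding genes. Within strata of equal CpG ratio the median percentiles were 28.8 and 39.7. The members' peaks were also narrower, with median widths of 1198 bp and 1003 bp beside 1648 bp and 1333 bp over all bound genes.

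The log2 ratio of ChIP over input, the other measure of a peak in the lists, gave the members a similar median rank in replicate 1 and a higher one in replicate 2. Its median percentile was 28.9 in replicate 1 (q score, 26.1) and 57.8 in replicate 2 (q score, 35.7). Among the genes with a high ratio and a middling q score in replicate 2 were Sycp2, with a log2 ratio of 4.10 (percentile 97.9) and a q percentile of 38.3, and Spata22, with 4.041 (percentile 97.7) and 35.7. Tex12 (3.92, percentile 96.8) and Sycp1 (3.46, percentile 88.8) were of the same kind, with q percentiles of 30.3 and 28.6.

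**Figure D3:**
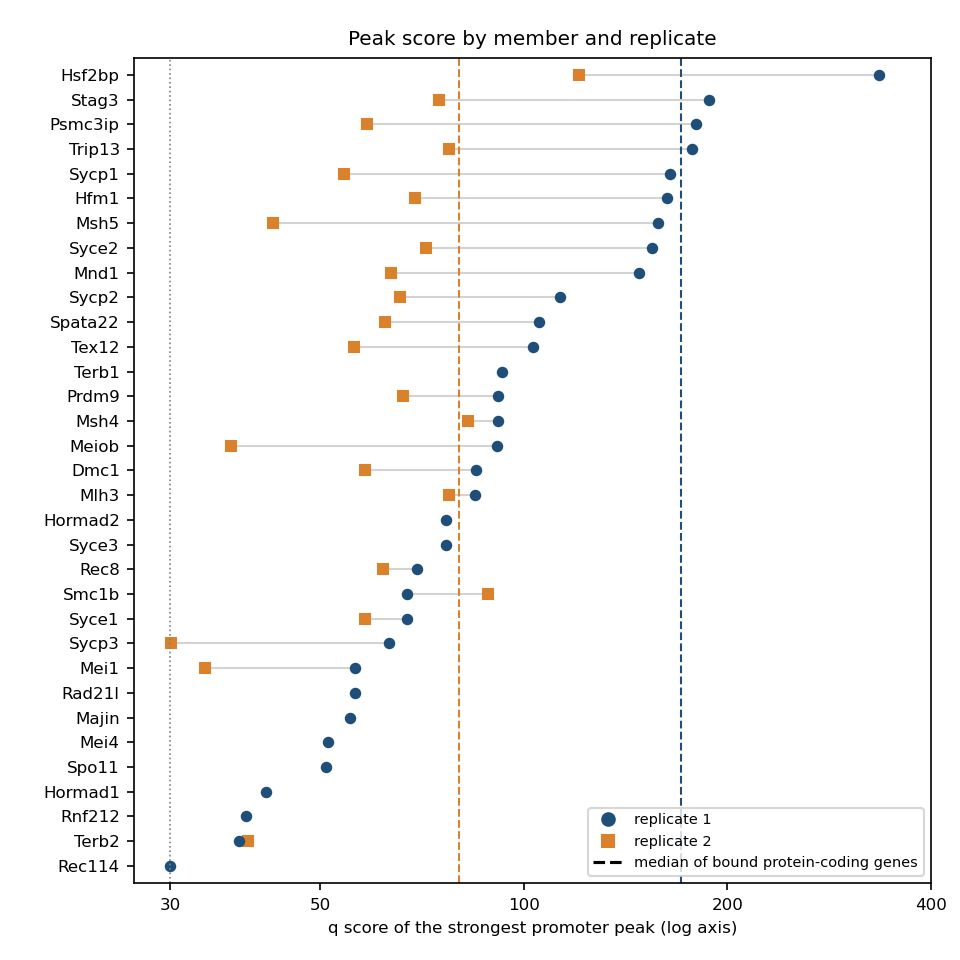
q score of the strongest promoter peak (x axis, log scale) for the 33 members bound in at least 1 list, ordered by replicate 1, with circles for replicate 1 and squares for replicate 2. Dashed lines give the medians of all bound protein-coding genes (171 and 80.1) and the dotted line the authors' threshold of 30. Members lie mostly left of the dashed line of their own replicate.

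Of the synaptonemal complex genes, all 7 were bound in replicate 1 and 6 in replicate 2. Sycp1 encodes the transverse filament that spans the paired chromosomes. Its peaks covered the start site on chromosome 3 (chr3:102935337-102936868 and chr3:102935338-102936365, mm10), with q scores of 164 and 54.2. Its log2 ratio in replicate 1, 4.71, was the highest of all members. Sycp2 and Sycp3 encode the lateral elements that run along each axis. Sycp2 scored 113 and 65.5. Sycp3 scored 63.2 and 30.1, the latter the lowest of any member in replicate 2 and at the threshold of the list. The remaining genes encode the central element. Syce2 had the widest member peak, 3246 bp in replicate 1 (q scores 155 and 71.8). Syce1 scored 67.2 and 58.2, and Tex12 103 and 56.1. Syce3 scored 76.9 in replicate 1, where its peak covered a start site, and had no replicate 2 peak closer than 18594 bp.

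Of the axis and cohesin genes, 7 of 8 were bound in replicate 1 and 4 in replicate 2. Bound in both were the cohesin genes Rec8, Smc1b and Stag3 and the ATPase gene Trip13, whose product strips HORMAD proteins from synapsed axes. Stag3 (188 and 74.9) and Trip13 (177 and 77.5) were among the strongest members. Rec8, a meiotic kleisin gene, scored 69.6 and 61.9. Smc1b scored 67.3 and 88.5, at percentiles of 20.5 and 56.2 within the lists. Smc1b and Terb2 had the higher number in replicate 2. The other 21 of the 23 members bound in both had it in replicate 1, as did 96.2% of all genes bound in both. Because scores are comparable only within a list, this order is no measure of strength. Hormad1 and Hormad2, which mark unsynapsed axes, were bound in replicate 1 alone, with scores of 41.7 and 76.9. At the CpG ratio of Hormad1, 0.694, 82.3% of other genes were bound in replicate 2. Rad21l encodes the other meiosis-specific kleisin. Its replicate 1 peak (chr2:151669976-151670814, score 56.4) lay 1443 bp upstream of the curated start site, outside the CpG-poor stretch printed above. The RefSeq gene record, on the minus strand, begins at position 151670622, inside that peak. Meikin, which protects centromeric cohesion at the first division, had its nearest peaks 14503 bp and 44646 bp upstream, and 30.8% of other genes in its CpG stratum were bound in replicate 2.

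The genes of break formation were all bound in replicate 1, 5 of 5, and 2 were bound in replicate 2. Spo11, which encodes the enzyme that cuts the DNA, had a replicate 1 peak across its start site on chromosome 2 (chr2:172979450-172980384, score 51.0). In replicate 2 its nearest peak (chr2:172976815-172977783, score 47.7) ended 2059 bp upstream, the closest miss of the 2 kb limit among the members. Replicate 1 also had a peak there, as the peak map shows. The RefSeq gene record of Spo11 begins at position 172977379, inside that upstream peak, although the curated start site lies downstream of it. Mei1, Mei4 and Rec114 encode partners that activate SPO11. Mei4 scored 51.4 and Rec114 30.0003 in replicate 1, the latter the weakest member peak of that list and just above the threshold, and neither was bound in replicate 2. The RefSeq gene record of Rec114, on the minus strand, begins at position 58822706, upstream of the curated start site at 58741559. That record held 4 further peaks in each list. With start sites of GENCODE M21, another annotation, Rec114 and Spo11 were bound in both lists. Mei1 has a second start site downstream of the first. Replicate 1 had a peak at each of them, with scores of 56.4 and 51.8, and replicate 2 had 1 at the downstream site alone, with a score of 33.8. Prdm9, whose zinc-finger methyltransferase product directs breaks to hotspots, scored 91.8 and 66.3, and both peaks lay mostly upstream of the reference start site.

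Strand exchange genes were bound in both lists at 6 of 7 (all protein-coding genes, 57.9%). Dmc1, the meiotic recombinase gene, scored 85.0 and 58.2. Psmc3ip and Mnd1, whose products form the HOP2-MND1 complex that assists DMC1, scored 180 and 58.6, and 148 and 63.6. Both pairs of peaks covered the start site. Meiob (91.2 and 37.0) and Spata22 (105 and 62.4) encode a single-strand binding pair, and the replicate 2 peak of Spata22 ended 51 bp short of its start site. Hsf2bp, which encodes a BRCA2 partner, had the highest scores of all members, 335 and 120. These peaks lay 949 bp and 1254 bp upstream of its reference start site and held the start of Rrp1b. At the Hsf2bp start site itself replicate 1 had a separate peak with a score of 48.3 and replicate 2 had none. Tex15, a factor of break repair and transposon silencing, had the lowest CpG ratio of the members. Its nearest peaks lay 28590 bp and 27199 bp downstream of its start site, and 1.74% of other genes in its CpG stratum were bound in both lists. These values belong to the single curated start site, at position 33570544. The RefSeq gene record of Tex15, on the plus strand, begins upstream of it, at position 33516689, and held 1 peak in each list. With start sites of GENCODE M21, Tex15 was bound in both lists.

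Crossover genes were bound at 5 of 5 in replicate 1 and 4 in replicate 2. Msh4 and Msh5 encode the MutSgamma pair that stabilises recombination intermediates. Msh4 scored 91.8 and 82.7, and Msh5 158 and 42.6, so that their order was opposite in the lists. The resolution gene Mlh3 scored 84.8 and 77.5, and the helicase gene Hfm1 163 and 69.1. Rnf212, which encodes a SUMO ligase that selects crossover sites, scored 38.9 in replicate 1 alone, and its nearest replicate 2 peak was 54997 bp away. Of the telomere attachment genes, 3 of 3 were bound in replicate 1 and 1 in replicate 2, beside the same shares of all genes. Their products, MAJIN, TERB1 and TERB2, form the complex that joins telomeres to the inner nuclear membrane. Terb1 scored 92.7 in replicate 1 alone, the highest score of the 10 genes bound in that list only. Majin scored 55.3, from a peak starting 21 bp downstream of its start site. Terb2 was bound in both (37.9 and 39.2), with no peak across its start site. Its stronger replicate 1 peak lay 1860 bp upstream, and a weaker one (31.1), 322 bp downstream, overlapped the replicate 2 peak.

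Peaks mostly lay on the start site. A start site was covered at 30 members in replicate 1 and 20 in replicate 2, beside 61.9% and 53.4% of all protein-coding genes, and in both at 20 (57.1%, beside 52.0%). Of the bound members, 90.9% and 87.0% had a covering peak, near the 91.2% and 89.0% of all bound genes. Where both lists had a peak, the strongest peaks overlapped by at least 50% of the shorter at 21 of 23 members, and at 93.8% of all such genes. Mei1 and Terb2 were the exceptions, and over any pair of promoter peaks all 23 overlapped by at least 50% of 1 of them.

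The 10 genes bound in replicate 1 alone (Syce3, Spo11, Hormad1, Hormad2, Rad21l, Mei4, Rec114, Rnf212, Majin and Terb1) had weak peaks there, with scores of 30.0003 to 92.7 and a median of 53.4. The 23 bound in both had replicate 1 scores of 37.9 to 335, median 103, so the groups overlapped. Of the members bound in replicate 1, 69.7% were also bound in replicate 2, compared with 85.4% of all protein-coding genes bound in replicate 1 and 83.2% of those of equal CpG ratio. Among genes in the same decile of the replicate 1 score the share was 75.1%, or 24.8 of 33 genes beside the 23 observed. Up to the 30th percentile of the replicate 1 score, 11 of 21 members (52.4%) were found again, beside 55.8% of all genes. Above it, 12 of 12 were, beside 98.0%. The members' replicate 2 share was thus close to that of genes with replicate 1 peaks of similar score. The lists hold no read counts. The shorter list belongs to the library for which the reporting summary lists more unique reads.

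**Figure D4:**
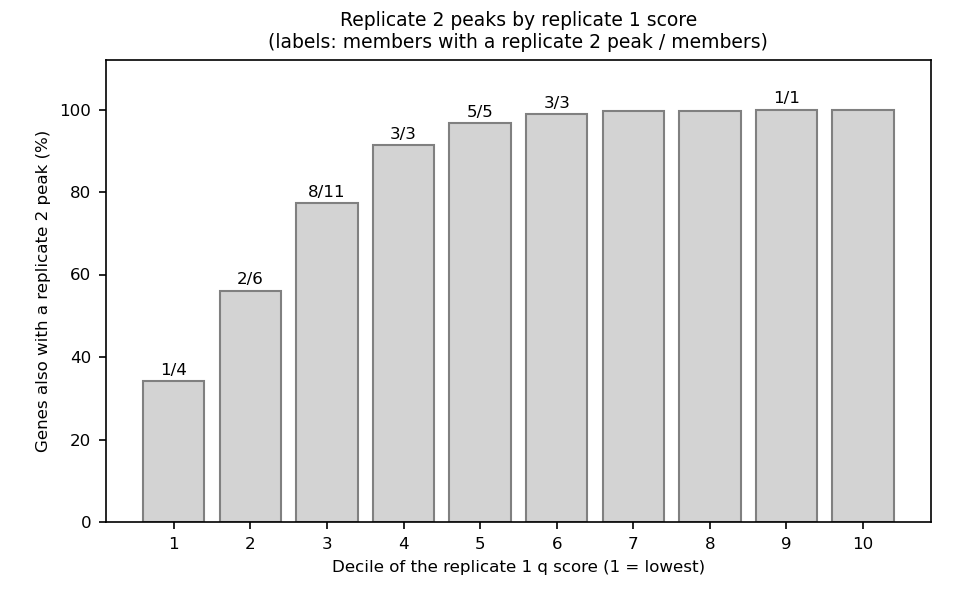
Protein-coding genes bound in replicate 1, other than members, in deciles of their replicate 1 q score (x axis), with the share also bound in replicate 2 (%, bars from 0). Labels give the members found again over the members in each decile. Of the members, 21 fall in the lowest 3 deciles, where the share rises from 34.1% to 77.3%, and none in the highest.

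Another gene started within 1 kb at 4 of the 35 members (11.4%), beside 13.9% of all protein-coding genes. These were Ribc2 141 bp from Smc1b, Gpc2 572 bp from Stag3, Brd9 44 bp from Trip13 and Patl2 83 bp from Terb2, each on the opposite strand. All 4 were bound in both lists, as were 90.9% of all protein-coding genes with such a neighbour. Of the other 31 members, 19 (61.3%) were bound in both, beside 52.6% of all. The strongest peak held the start of another gene at 4 members in each list (Smc1b, Stag3, Hsf2bp and Trip13), beside 22.6% and 22.9% of bound genes. For these genes the lists cannot tell to which of the neighbouring genes a peak belongs.

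A list of 37 other genes of meiosis, many of which also act in mitotic cells, was set beside the members. Of these, 34 were bound in replicate 1, 31 in replicate 2 and 30 (81.1%) in both. Of all protein-coding genes, 67.8% were bound in replicate 1 and 57.9% in both. No share at equal CpG ratio was computed for this list. The 81.1% and the members' 65.7% therefore cannot show a difference between the gene groups apart from CpG ratio. The regulators of meiotic entry and transcription among them were bound at 8 of 8 in replicate 1 and 7 in replicate 2. Of these regulators, Stra8 had a CpG ratio of 0.464 and the rest had ratios from 0.729 to 0.977. In each stratum that holds the latter ratios, at least 96.5% of other genes were bound in replicate 1. In replicate 2 at least 89.9% were. The counts therefore do not set these regulators apart from other genes of high CpG ratio. The highest mean percentiles were those of Skp1 (98.0), which acts in ubiquitin ligases, and Cdk2 (82.3), a kinase of the cell cycle. Shoc1, a crossover factor with a CpG ratio of 0.175, was bound in neither list. Neither was Tex11, an X-linked crossover gene with a CpG ratio of 0.753. All 35 members are autosomal.

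Promoters of the 29 genes in the table were searched on both strands, from 250 bases before to 50 after the start, for 6 exact motifs, none of which contains another. The core TCCCGC, bound by E2F6 and its relatives, was present in 19 (65.5%), beside 27.0% of 16853 protein-coding promoters and 33.2% at equal CpG ratio. The E-box CACGTG, the MGA-MAX type, which reads alike on both strands, was in 7 (24.1%), beside 8.11% and 9.81%. TCCCGC was in 15 of the 21 members bound in both lists and in 4 of the 8 bound in replicate 1 alone. It is shown here for the synaptonemal complex and axis genes that hold it, with 10 bases on either side, the motif in capitals and the letters on the strand that reads TCCCGC (GRCm38.p6).
Sycp1 (chr3:102936083-102936108, minus strand): agcctcccagTCCCGCgagttctcgg
Sycp3 (chr10:88459430-88459455, minus strand): agcagcacttTCCCGCtgttccttcc
Syce2 (chr8:84871986-84872011, plus strand): tgaccccgagTCCCGCacctacgcat
Tex12 (chr9:50561398-50561423, plus strand): tccctttactTCCCGCctttttcctc
Hormad1 (chr3:95559572-95559597, minus strand): agaccactatTCCCGCcaaaagctgc
Rec8 (chr14:55618118-55618143, plus strand): gtgcacctgaTCCCGCtggagggcga
Smc1b (chr15:85131989-85132014, minus strand): aagaatttctTCCCGCgctttttttt
Stag3 (chr5:138280497-138280522, plus strand): tcccgtgcctTCCCGCgtttttttct

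The match in Stag3 lay across the start site, that in Sycp1 just after it, and those in Sycp3 and Tex12 began at -147 and -145 bases, upstream of it. A SOX core, AACAAT, was in none of the 29 promoters, beside 9.05% of all and 5.47% at equal CpG ratio. The variant ACAAAG was in 6 (20.7%, beside 16.5% and 14.1%), namely Syce1, Dmc1, Hormad1, Rec8, Spata22 and Mlh3. CCTCAG, the STRA8-MEIOSIN core, was in 9 (31.0%, beside 27.1% and 26.7%), and CAACTG, the MYB core, in Hsf2bp alone (3.45%, beside 12.2% and 11.5%). A match is a string of letters and not a binding site, and the shares were not tested.

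**Figure D5:**
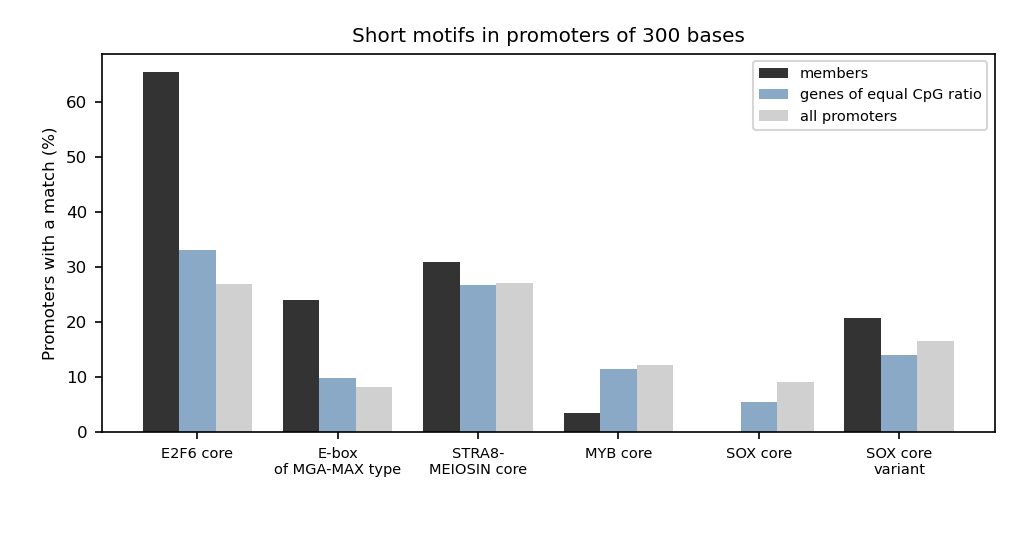
Share of promoters with a match (%, bars from 0) for 6 short motifs in 300 bases around the start site, for the 29 members in the promoter table (dark), genes of equal CpG ratio (blue) and all 16853 protein-coding promoters (grey). The E2F6 core is the most frequent in members at 65.5%, and the SOX core has no member bar because no member holds it.

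ChIP-nexus gave no region within 2 kb of a start site of any member in either replicate. The nearest regions lay 509449 bp (replicate 1, from Psmc3ip) and 564082 bp (replicate 2, from Spata22) away. The lists are short, with 28 of 111 and 0 of 19 regions within 2 kb of any protein-coding gene, and none near the 37 other meiosis genes. The reporting summary also lists far fewer unique reads for these libraries than for SOX3 ChIP-seq. The lack of a region near the members therefore says little about them.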

How the data were processed

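SOX3 ChIP-seq peaks were called by the authors per replicate with USeq, after alignment to mm10 with Novoalign, in which a read that matched several places was put at a random one of them, so repeats can share signal. The methods state that blacklisted regions were removed from peaks, but not whether this covers the lists of single replicates. The deposited lists have no header, and their columns were read from the values as a p score, a q score and a log2 ratio of ChIP over input. The deposited ChIP-nexus lists, from MACS2 2.1.1, hold a score, a fold enrichment and −log10 p and q values, of which only positions were used. Start sites were those of 45756 RefSeq curated transcripts of 26180 genes (GRCm38.p6). A gene was bound if a peak reached into the 2 kb around any start site. Overlaps were computed in Python 3.11.15 and checked against bedtools 2.31.1 and on simulated data (200 planted genes, 0 differing). No test was run. All 35 members were named, and of the other meiosis genes those without a peak and the 3 of highest rank, of which 1 is not reported here. The members, lists, motifs and comparisons were chosen with earlier results of these data known. The lists hold no read counts. The reads per library listed in the reporting summary were quoted to compare libraries and entered no calculation. Alternatives covered thresholds, windows, annotation, CpG strata and replicates. No unmapped columns were used.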

Additional observations from a re-analysis of the deposited data

How the results depend on the processing

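Of 27 alternatives, 24 planned and 3 added after seeing the data, 24 kept the direction of the 3 main values and stayed within 1.5 times the count or within the spread between replicates. That spread, an SD of 2 values, was 12.5 points for the difference from genes of equal CpG ratio and 6.81 for the percentile. The first is wide beside the main value of -4.16 points. Leaving out a replicate could not move the percentile beyond the second, which comes from the same 2 values. The tally is thus no measure of stability. Among the 24, a wider CpG window gave a difference from genes of equal CpG ratio of -2.08 in place of -4.16 points. At a q score above 60, 13 members in place of 23 were bound in both lists (all genes, 39.5%), with Dmc1, Mei1, Meiob, Msh5, Psmc3ip, Syce1, Sycp1, Sycp3, Terb2 and Tex12 lost. With the highest log2 ratio in place of the q score, the members' mean median percentile was 44.0 in place of 30.9. Leaving out each replicate gave 23 to 33 bound members and a median percentile of 26.1 to 35.7. It gave a difference from genes of equal CpG ratio of -6.22 to 11.5 points, and that difference was reversed to 11.5 points without replicate 2. The cause was not tested. Windows of 0.5 and 1 kb lost Hsf2bp (22 members), a 5 kb window gained Spo11 (24), and the 5′-most start site lost Mei1 (22). GENCODE M21 transcripts gained Rec114, Spo11 and Tex15 (26). Counting only peaks that covered a start site gave 20 members. No paired analysis was possible because no result comes from a test and the replicate numbers link no groups that were compared. Peak lists without counts limit any statement on members without a peak.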
